A study of Rattus norvegicus with 9 samples.

Results

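Chemokines, interleukins and the receptors that read them were followed in rat kidneys that had been perfused with mesenchymal stromal cells (MSC) and in kidneys that had not been perfused (NP). A probe belonged to the set when it was not a control and its gene name was Ccl, Cxcl, Ccr, Cxcr or Il followed by a digit. This gave 142 probes for 127 genes, of 30367 gene probes and 26115 gene names on the array. Both groups were left kidneys of Fisher F344 rats that had gone through 20 min. of warm ischaemia, a model of donation after circulatory death. The 5 NP kidneys are labelled as not perfused, although their titles name 4 hrs of perfusion with Belzer solution at 4°C, and the group is called NP here after the treatment label. The 4 MSC kidneys were then perfused for 4 hrs at 4°C with Belzer solution, a cold organ preservation fluid, to which MSC had been added. The MSC were expanded from bone marrow of Sprague Dawley rats carrying an Enhanced Green Fluorescence Protein transgene, so that transcripts of the infused cells and of the host kidney hybridized to the same probes and cannot be told apart. The paper also describes the NP kidneys as non-perfused, stored for RNA after the warm ischaemia. On that description the effects of MSC, of cold perfusion and of the added hours cannot be told apart either.

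Chemokines are small secreted proteins that attract leukocytes along a gradient. CXC chemokines such as Cxcl1 and Cxcl2 act mainly on neutrophils through Cxcr2, whereas CC chemokines such as Ccl2 and Ccl7 act mainly on monocytes through Ccr2. Interleukins are the secreted signals of immune, stromal and epithelial cells, and many are held in check by soluble antagonists such as Il1rn and Il18bp. In the ischaemic kidney, tubular and endothelial cells are known sources of these signals, and the leukocytes that answer them arrive mainly once blood flow returns, which did not happen in these isolated organs.

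RNA was hybridized to 9 one-colour Agilent arrays, and the values below are log2 intensities after cyclic loess normalization. Each probe has its own brightness, so levels are compared between arrays and not between genes. Between 58.6% and 67.8% of all gene names were well above background on an array, with no consistent gap between the groups (61.1% to 66.6% in NP and 58.6% to 67.8% in MSC). The arrays came from 2 slides, the first with NP 1, NP 2, NP 3, MSC 1 and MSC 2 and the second with NP 4, NP 5, MSC 3 and MSC 4. All 8 proximal tubule genes and all 5 distal nephron genes of the marker lists passed the filter on low values, as the kidney label requires. Of these, 2 and 3 were higher in MSC at an unadjusted p below 0.05. MSC 3 stood apart by its fat cell genes, whose summed log2 level was 15.85 there and 14.81 in MSC 4, against 12.45 to 13.34 on the other arrays. Of 7 fat genes 5 passed the filter, and 2 were higher in MSC at an unadjusted p below 0.05, Adipoq (log2 fold change 1.43) and Cidec (0.36). The defining fat hormone gene Lep was not above background on any array. Red cell genes (Hbb, Alas2) were lowest in MSC 1 and MSC 3, and both were lower in MSC than in NP at an unadjusted p below 0.05. Without MSC 1 the difference in Hbb moved from -1.68 to -0.86 and that in Alas2 from -1.74 to -1.12, and Hbb lost that p without NP 1, NP 3, NP 4, NP 5, MSC 1 or MSC 3.

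Fewer members than genes overall were detected. On all 9 arrays 48 of the 127 genes were detected (37.8%, against 56.1% of all gene names), 27 were detected on some arrays and 52 on none (40.9%, against 28.8%). The number of members detected ranged from 56 to 68 per NP array and from 54 to 72 per MSC array, so the groups overlapped. No gene was detected on every array of one group and on none of the other. On a microarray, a probe that is not above background gives only an upper bound, and RNA from a few leukocytes is diluted by that of the whole organ; fewer cells of a type and less RNA per cell cannot be told apart.

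**Figure D1:**
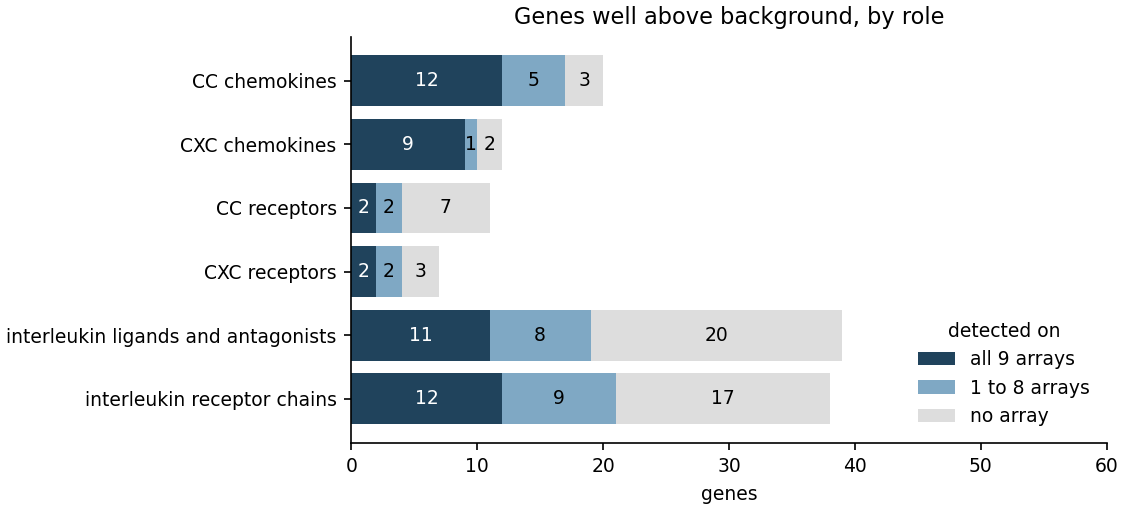
Number of genes in each role (horizontal axis) that were well above background on all 9 arrays, on 1 to 8 arrays or on no array. Chemokines were detected on all arrays in 12 of 20 CC and 9 of 12 CXC genes, while their receptors were in 2 of 11 and 2 of 7.

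Among the chemokines, 12 of 20 CC genes and 9 of 12 CXC genes were detected on all 9 arrays, against 2 of 11 CC receptors and 2 of 7 CXC receptors. Among the interleukins, 11 of 39 ligands and antagonists and 12 of 38 receptor chains were. In 32 textbook pairs of a ligand and its receptor, the ligand was detected on all 9 arrays in 24, and in 12 of these the receptor was detected on none. The neutrophil pair Cxcl1 and Cxcr2 and the monocyte pair Ccl2 and Ccr2 were both of this kind, as were Ccl19 and Ccl21, which guide lymphocytes and dendritic cells, with Ccr7, and Ccl24, an eosinophil attractant, with Ccr3. Cxcr2 lay between 7.96 and 8.08 in NP and between 7.98 and 8.02 in MSC, and Ccr2 lay between 7.95 and 8.06 in NP and between 7.96 and 8.12 in MSC, in each case with overlapping groups. Il18, a product of tubular cells, was detected on all arrays without its receptor chain Il18r1, and Il33, an alarm signal of endothelial and stromal nuclei, was detected on all arrays while its receptor Il1rl1 was seen on 1. In 5 pairs both sides were detected on all 9 arrays, namely Cxcl12 with Cxcr4 and with Cxcr7 (now Ackr3), Ccl27 and Ccl28 with Ccr10, and Il11 with Il11ra1. In 7 pairs the receptor of such a ligand appeared on some arrays, among them Cxcl10 with Cxcr3 (7 arrays) and Ccl20 with Ccr6 (6 arrays). The reverse was seen for Il17a, Il4 and Ccl25, which were detected on no array while their receptors Il17ra, Il4r and Ccr9 were detected on all 9.

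**Figure D2:**
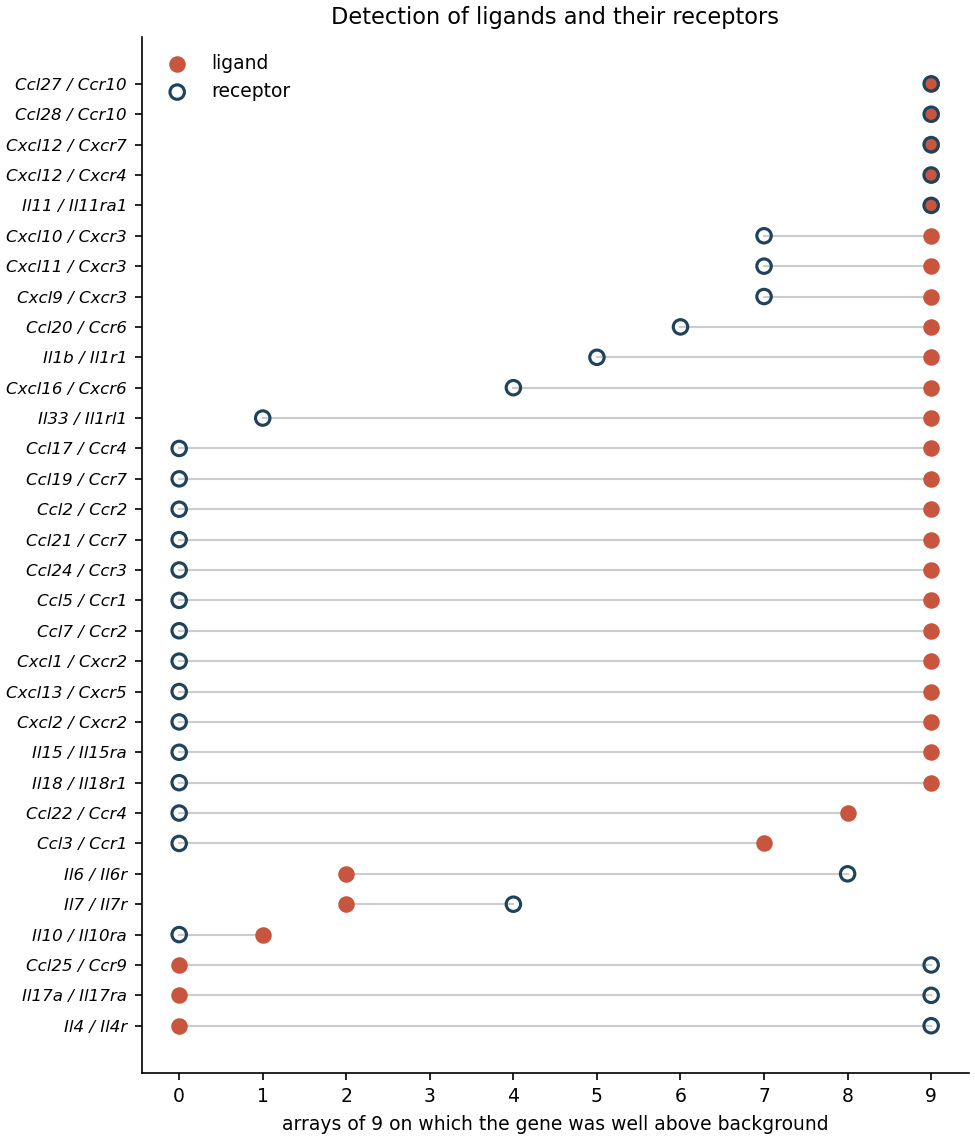
Number of arrays of 9 (horizontal axis) on which each ligand (filled) and its receptor (open) were well above background, for 32 textbook pairs. In 12 pairs the ligand sits at 9 and the receptor at 0.

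For the comparison of MSC with NP, 46 of the 127 members passed the filter and 81 did not, and 13769 genes were tested together. No member reached an FDR below 0.05 with a fold change above 1.5, and neither did any other gene (0% of 13769 higher and 0% lower in limma). The paper, from 5 NP and 4 MSC arrays, reported Tmem52b and Calb1 as higher in MSC at these limits. Here the log2 fold change of Calb1 was 1.13, with a limma FDR of 0.211. With array weights 2 genes passed both limits, none of them a member. The cause of this departure was not tested. The smallest FDR of a member was 0.334. At an unadjusted p below 0.05, 5 members were higher in MSC and 1 was lower, which is 10.9% and 2.17% of the 46, against 6.59% and 5.09% of all genes tested. The 5 were Cxcl1, Cxcl2, Ccl7, Il18bp and Il3ra, and the 1 was Ccl5. By an exact permutation test of each gene alone, 4 of the 46 were higher at a p below 0.05, which left out Cxcl2, and 0 were lower, against 6.38% and 5.21% of all genes by the same test. With a fold change above 1.5 as well, Cxcl1, Cxcl2 and Ccl7 were left and none was lower, against 0.675% and 0.574% of all genes. Of the 46 log2 fold changes 28 lay above 0 and 18 below, and their median was 0.05 against -0.01 over all genes. When each array was scaled by its median alone, 3 members were higher and 0 lower at that p, and the split over all genes turned from 6.59% higher and 5.09% lower to 2.03% higher and 4.08% lower. All MSC arrays lay above all NP arrays in 2 members (4.35%, against 3.18% of all genes) and below them in 0 (against 2.14%). So the members were not called as differing, and the values that follow are those of the genes with the smallest p and of the main signals of each role.

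**Figure D3:**
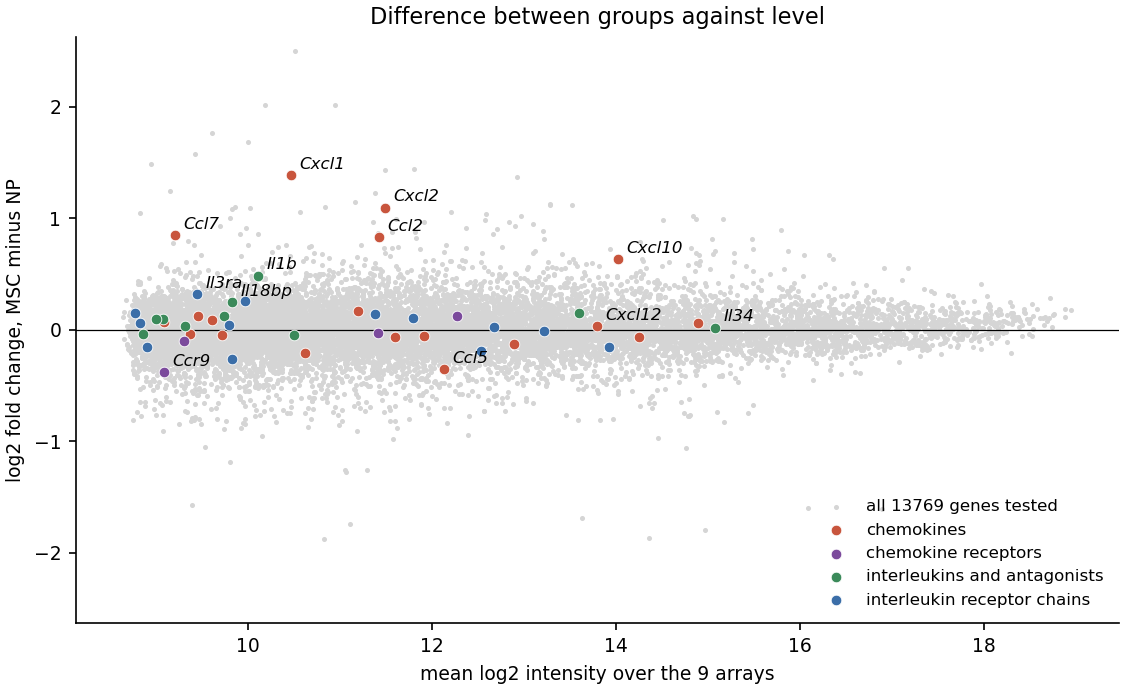
Log2 fold change, MSC minus NP (vertical axis), against the mean log2 intensity over 9 arrays (horizontal axis) for 13769 genes (grey) and the 46 members tested (coloured by role). Cxcl1 (1.39), Cxcl2 (1.09), Ccl7 (0.85) and Ccl2 (0.83) lie above the bulk, while Il34 and Cxcl12 lie on the zero line.

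The members with the widest gap were chemokine ligands. Cxcl1, a neutrophil attractant (probe on chromosome 14, 18690468 to 18690527, minus strand, rat build rn4), stood at 10.03, 9.95, 9.41, 9.71 and 10.14 in NP 1 to 5 and at 10.02, 10.93, 12.82 and 11.17 in MSC 1 to 4. MSC 2, MSC 3 and MSC 4 lay above every NP array, whereas MSC 1 lay within the NP range. The mean was 9.85 ± 0.29 (SD, n = 5) in NP and 11.24 ± 1.17 (SD, n = 4) in MSC, a log2 fold change of 1.39 (SE 0.45, 2.61-fold, limma FDR = 0.334, two-sided exact permutation p = 0.0238).

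Cxcl2, which shares the receptor of Cxcl1 (chromosome 14, 18677165 to 18677224, minus strand, rn4), read 11.55, 10.998, 10.02, 11.05 and 11.40 in NP and 10.76, 12.41, 12.81 and 12.41 in MSC. The same 3 MSC arrays lay above all NP arrays, and MSC 1 was again inside their range. The log2 fold change was 1.09 (SE 0.43, 2.14-fold, limma FDR = 0.389), and the exact permutation test did not pass 0.05 (p = 0.0873). The probes of Cxcl1 and Cxcl2 lie 13.3 kb apart and share no run of letters longer than 6 bases. Cxcl3 and Cxcl5, further ligands of the same receptor, were at background, with Cxcl3 detected on 1 MSC array by 1 of its probes and Cxcl5 on none.

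Ccl7, a monocyte attractant (chromosome 10, 70268674 to 70268733, plus strand, rn4), read 8.69, 8.88, 8.79, 8.61 and 9.19 in NP and 9.38, 9.15, 10.60 and 9.60 in MSC. Here MSC 1, MSC 3 and MSC 4 lay above every NP array and MSC 2 lay just under NP 5. The log2 fold change was 0.85 (SE 0.26, 1.80-fold, limma FDR = 0.334, exact permutation p = 0.0159). Its neighbour Ccl2, the main monocyte attractant (chromosome 10, 70257919 to 70257978, plus strand, 10.8 kb from the Ccl7 probe), read 10.11, 11.004, 10.09, 11.67 and 12.39 in NP and 10.65, 11.14, 13.21 and 12.53 in MSC. The groups overlapped, but within each slide the MSC mean was higher, by 0.49 on the first and 0.84 on the second. Its log2 fold change was 0.83 (SE 0.61, limma FDR = 0.615, exact permutation p = 0.270). With slide as a term of the fit it was 0.65, and its unadjusted p was then below 0.05.

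**Figure D4:**
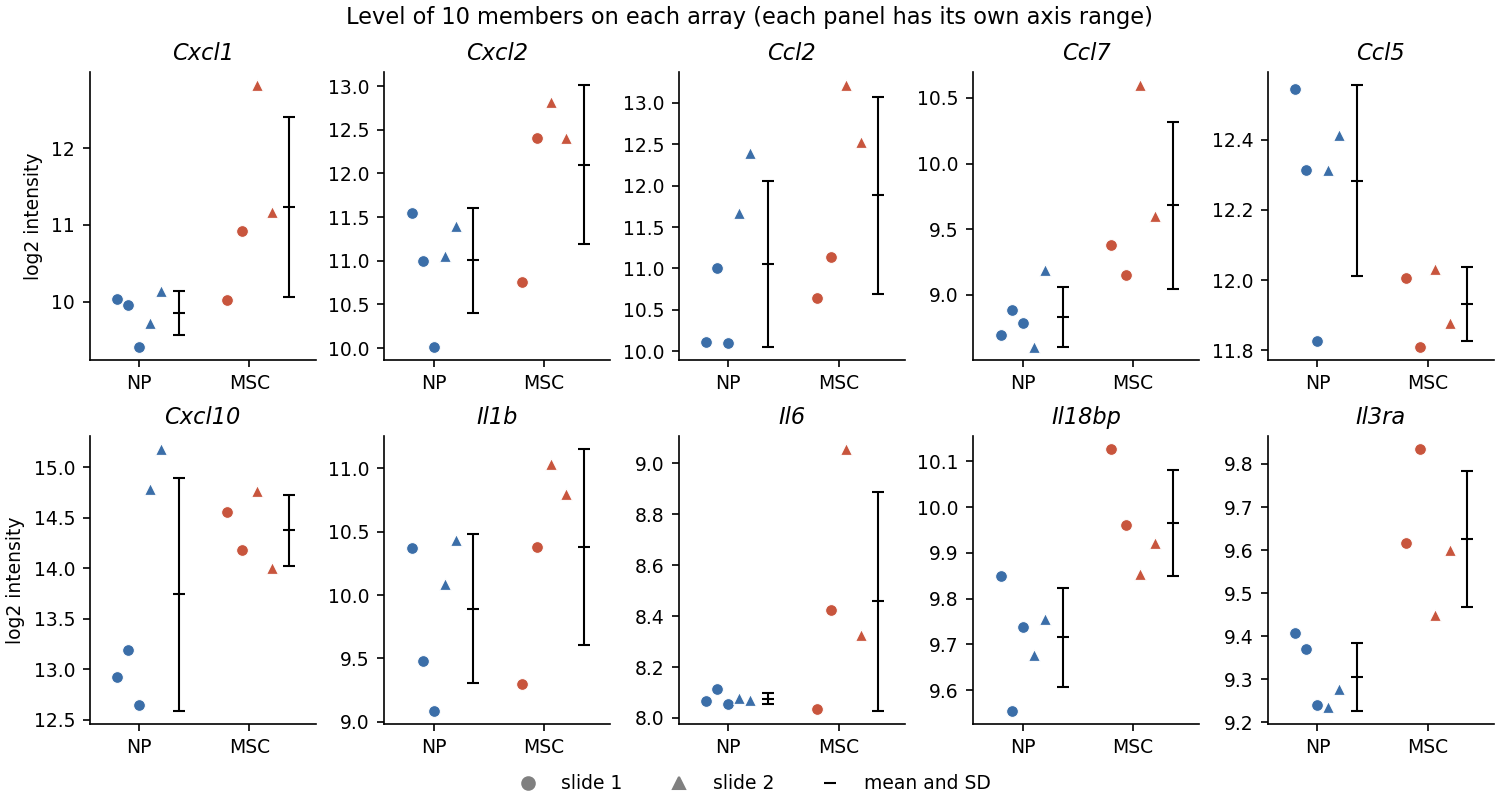
Log2 intensity of 10 members (vertical axes, each with its own range) on 5 NP arrays (blue) and 4 MSC arrays (red), circles for the first slide and triangles for the second, with the mean and SD beside each group. MSC 3, the left of the MSC triangles, is the highest array for Cxcl1, Cxcl2, Ccl2, Ccl7, Il1b and Il6.

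MSC 3 weighed heavily on these genes. It was the highest array for 12 of the 46 members (26.1%), against 8.16% of all genes tested, and NP 2 was the highest for 10 (21.7%), against 28.8% of all genes. Without MSC 3 the log2 fold change was 0.86 for Cxcl1, 0.86 for Cxcl2, 0.54 for Ccl7 and 0.39 for Ccl2, and of these Cxcl1 and Ccl7 had an unadjusted limma p below 0.05. Without both MSC 3 and MSC 4, the arrays with the most fat cell signal, it was 0.62 for Cxcl1, 0.58 for Cxcl2, 0.43 for Ccl7 and -0.16 for Ccl2, and Ccl7 alone of the 4 had such a p. Ccl7 kept it in all 26 alternatives of the fit, whereas Cxcl2 lost it when NP 3, MSC 2, MSC 3 or MSC 4 was left out, with log2 fold changes of 0.85, 0.99, 0.86 and 0.99. The immediate early genes, which cells switch on within minutes of stress, had their highest summed levels on the second slide (18.47 to 18.83, against 17.19 to 18.21 on the first). Of the 9 listed, Fos alone had an unadjusted p below 0.05 for the difference between groups (log2 fold change 1.44, SE 0.57, FDR = 0.390). It lost that p when NP 1, NP 2, NP 3, MSC 3 or MSC 4 was left out (1.14 to 1.40). Jun differed by -0.38, by -0.17 without MSC 1 and by -0.65 without NP 1, where its unadjusted p was below 0.05. The part of fat tissue and of the stress response in the chemokine values was not tested.

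Slide itself went with some members. In the fit with group and slide, 9 of 46 members had a p below 0.05 for slide (19.6%, against 14.0% of all genes), and none passed an FDR of 0.05. Of the 9, 6 were higher on the second slide and 3 were lower. Ccl2 was higher by 1.79, Cxcl10 by 1.13 and Il1b by 0.83, whereas Il1r2 was lower (-0.75), as were Il6r (-0.33) and Cxcr7 (-0.26). Cxcl10, an interferon-induced attractant of T cells, read 12.93, 13.19, 12.64, 14.79 and 15.18 in NP and 14.56, 14.18, 14.77 and 14.00 in MSC. The difference between the groups turned with the slide, being 1.45 on the first and -0.60 on the second, and over all arrays it was 0.63 (SE 0.51, FDR = 0.646). It ranged from 0.36 without NP 3 to 0.99 without NP 5, where alone among arrays left out singly its unadjusted p was below 0.05, and with array weights it was -0.03. Slide and the kidneys placed on it cannot be told apart here.

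The reason to show the sequence upstream of the 3 chemokines with the largest fold changes is that each holds a match to the consensus of NF-κB, the factor known to drive their transcription in inflammation. The 250 bases before each start site are given 5′ to 3′ from RefSeq (GRCr8), with the matching letters in capitals. Cxcl1 is chr14:17479322-17479571 on the minus strand, Cxcl2 is chr14:17467256-17467505 on the minus strand and Ccl7 is chr10:67513845-67514094 on the plus strand.
Cxcl1: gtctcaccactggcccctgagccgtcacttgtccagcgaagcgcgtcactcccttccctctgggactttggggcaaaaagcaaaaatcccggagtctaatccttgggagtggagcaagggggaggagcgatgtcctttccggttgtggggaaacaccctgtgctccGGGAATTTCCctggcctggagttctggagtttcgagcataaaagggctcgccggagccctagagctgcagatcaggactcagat
Cxcl2: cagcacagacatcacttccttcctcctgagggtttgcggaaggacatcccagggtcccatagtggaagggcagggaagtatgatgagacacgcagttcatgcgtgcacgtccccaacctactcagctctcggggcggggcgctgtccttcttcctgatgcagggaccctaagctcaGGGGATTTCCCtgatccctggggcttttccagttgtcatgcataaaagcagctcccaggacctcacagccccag
Ccl7: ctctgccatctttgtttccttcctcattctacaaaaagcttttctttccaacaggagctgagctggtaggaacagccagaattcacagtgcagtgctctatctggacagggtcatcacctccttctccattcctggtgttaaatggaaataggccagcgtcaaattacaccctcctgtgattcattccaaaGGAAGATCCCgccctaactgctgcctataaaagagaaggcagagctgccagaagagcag
The match begins 84 bases before the start in Cxcl1, 74 in Cxcl2, where 2 matches overlap by all but 1 letter, and 59 in Ccl7. The κB consensus, searched on both strands in the same window, was present in 4.24% of 33469 promoters, in 13 of the 98 promoters found for members (13.3%) and in 5 of the 34 of members tested (14.7%). Those 5 were Cxcl1, Cxcl2, Ccl7, Cxcl10 and Ccl20, and their log2 fold changes ran from -0.05 in Ccl20 to 1.39 in Cxcl1. The other promoters of the 34 held no match. Tested members for which no promoter was found, Ccl2 and Ccl5 among them, were not searched. A match describes the letters and does not show binding.

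Ccl5, a T cell and monocyte attractant made by activated lymphocytes and tubular cells, was the 1 chemokine with a lower mean in MSC at that p. It read 12.55, 12.32, 11.83, 12.31 and 12.42 in NP and 12.01, 11.81, 12.03 and 11.88 in MSC (chromosome 10, 71605854 to 71605913, minus strand, rn4). The MSC arrays lay below all NP arrays but NP 3. The log2 fold change was -0.35 (SE 0.14, limma FDR = 0.389, exact permutation p = 0.0556), with -0.32 on the first slide and -0.41 on the second. Its unadjusted limma p was below 0.05 in 18 of the 26 alternatives and not, for example, without MSC 2 (-0.31). Besides Ccl7 and Ccl5, no CC chemokine tested had an unadjusted p below 0.05, Ccl19 (-0.13, SE 0.29, FDR = 0.893) among them. The sign of Ccl19 rested on NP 2, its highest array at 14.02, and without NP 2 the log2 fold change was 0.14.

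Cxcl12, which holds stem and progenitor cells in place and draws cells that carry Cxcr4, ran from 13.04 through a median of 13.86 to 14.38 in NP and from 13.48 to 14.28 in MSC, and its log2 fold change was 0.03 (SE 0.25, FDR = 0.972). Its second probe gave 0.05. Cxcr4 ran from 8.91 to 9.69 in NP and from 9.08 to 9.47 in MSC, with a difference of -0.10 (SE 0.15, FDR = 0.828), and Cxcr7, the scavenging receptor for the same ligand, differed by -0.03 (FDR = 0.939). Cxcl16, a membrane-bound chemokine of epithelium, ran from 14.64 to 15.07 in NP and from 14.75 to 15.02 in MSC (0.06, SE 0.11, FDR = 0.862). Ccl24 ran from 14.20 to 14.46 in NP and from 13.98 to 14.52 in MSC (-0.07, SE 0.11, FDR = 0.846). In each of these the groups overlapped. Ccr9, the gut homing receptor of lymphocytes, had the lowest log2 fold change of the 46, -0.38 (SE 0.17, FDR = 0.426), but without NP 2 it was -0.23, above that of Ccl5 (-0.34). Of the 4 chemokine receptors tested none had a p below 0.05.

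**Figure D5:**
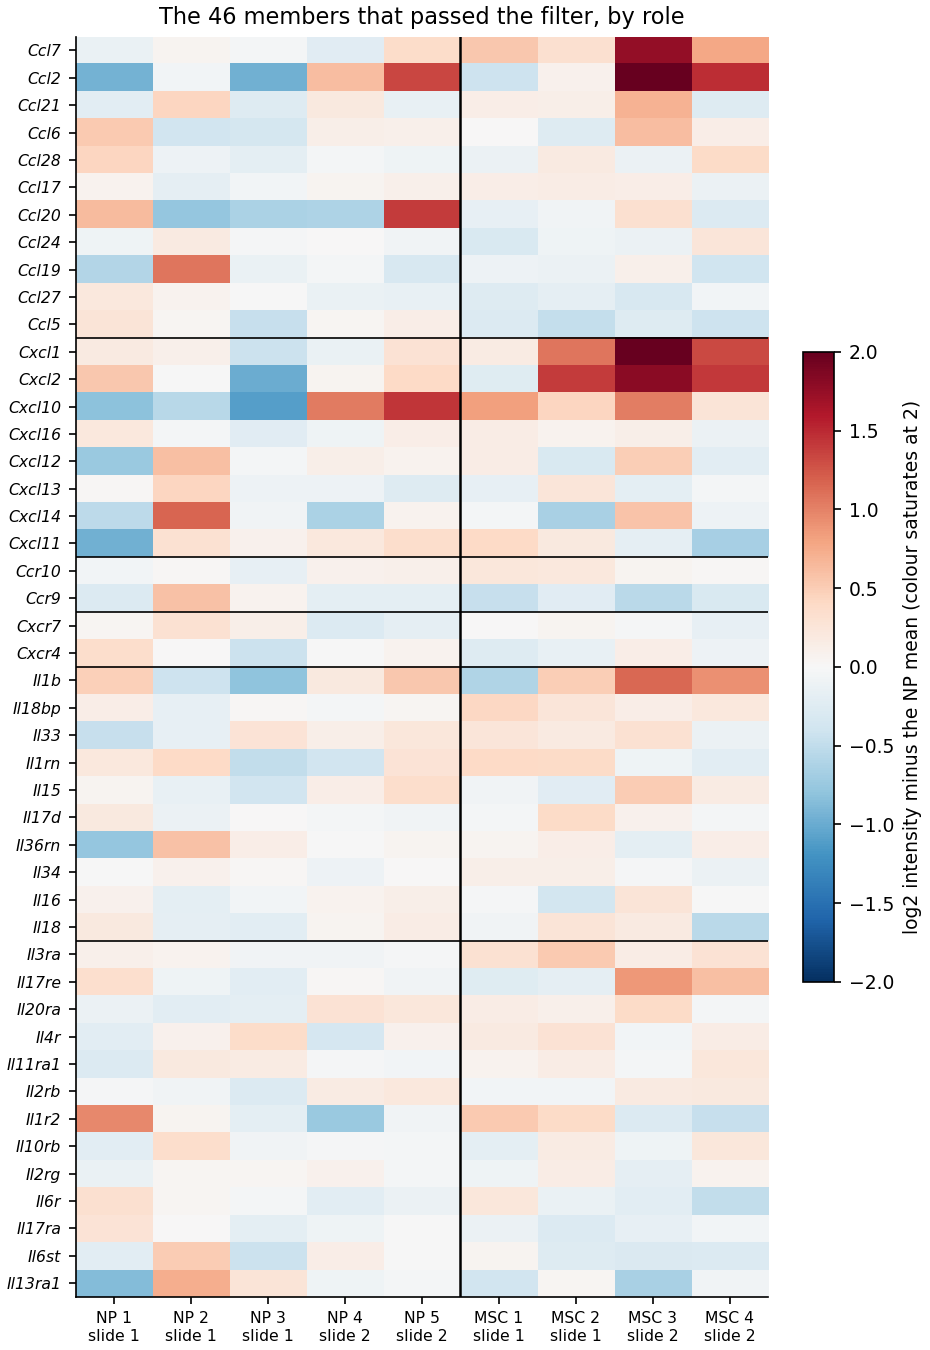
Log2 intensity minus the NP mean of the gene (colour, saturating at 2) for the 46 members that passed the filter (rows, by role, lines between roles) on 9 arrays (columns). The squares at 1 or more above the NP mean are Cxcl1, Cxcl2 and Ccl2 on MSC 3 and MSC 4, Ccl7, Cxcl10 and Il1b on MSC 3, Cxcl1 and Cxcl2 on MSC 2, Cxcl10 on NP 4, Ccl2, Cxcl10 and Ccl20 on NP 5, and Cxcl14 and Ccl19 on NP 2, and Cxcl10 on NP 3 is the one as far below it.

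Of the IL-1 family, which holds Il1b, Il18 and Il33 with their receptors and antagonists, 20 genes were on the array, 7 passed the filter and 1 had a p below 0.05. Il18bp, the soluble antagonist that binds Il18, read 9.85, 9.56, 9.74, 9.68 and 9.76 in NP and 10.13, 9.96, 9.85 and 9.92 in MSC (chromosome 1, 159472813 to 159472872, minus strand, rn4). All MSC arrays lay above all NP arrays, MSC 3 only just above NP 1. The log2 fold change was 0.25 (SE 0.09, 1.19-fold, limma FDR = 0.351, exact permutation p = 0.0159), and without MSC 1 it was 0.20, with an unadjusted p above 0.05. Il18 itself differed by -0.04 (SE 0.17, FDR = 0.940), reading 9.98 to 10.77 in MSC and 10.31 to 10.71 in NP. Il1b, the fever cytokine of macrophages, read 10.37, 9.48, 9.09, 10.09 and 10.44 in NP and 9.29, 10.38, 11.04 and 10.80 in MSC, so that MSC 3 and MSC 4 were the highest arrays and MSC 1 was below 4 of the 5 NP arrays. Its log2 fold change was 0.49 (SE 0.38, FDR = 0.639), and it depended on single arrays, being 0.85 without MSC 1, where its unadjusted p was below 0.05, 0.27 without MSC 3 and -0.06 without both MSC 3 and MSC 4. The receptor antagonist Il1rn differed by 0.12 (SE 0.22, FDR = 0.856) and Il33 by 0.15 (SE 0.16, FDR = 0.744). Il1r1, the signalling receptor of Il1b, did not pass the filter and was detected on 4 of 5 NP and 1 of 4 MSC arrays.

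In the gp130 family, which signals through the shared chain Il6st and to which the list also added Il31ra, 3 of 8 genes passed. None of them had a p below 0.05. Il6 was not above background on any NP array (8.05 to 8.11) and was detected on 2 of 4 MSC arrays, MSC 2 at 8.42 and MSC 3 at 9.06, with MSC 1 at 8.03 and MSC 4 at 8.32. It did not pass the filter, and the fit without a filter gave a limma FDR of 0.573. With the filter set on linear intensities in place of log2 values 72 members were tested, and Il6 was among those higher at an unadjusted p below 0.05. In the fit without a filter it was so under 7 of 26 alternatives. No size is given for the difference, as the NP arrays hold only an upper bound. Il6r, the receptor chain of Il6, differed by -0.15 (SE 0.15, FDR = 0.714) and Il6st by -0.19 (SE 0.17, FDR = 0.685). Over the 26 alternatives Il6r ranged from -0.45 to 0.05 and Il6st from -0.30 to -0.06, with no unadjusted p below 0.05. Il10, the anti-inflammatory interleukin, was detected on 1 MSC array, MSC 3 at 8.35, and on no NP array, and its chain Il10ra was detected on none. Il10rb, which several receptors share, was detected on all 9 arrays and differed by 0.03 (SE 0.13, FDR = 0.952).

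Of the common gamma chain family, to which the list also added Il13, Il13ra1 and Il13ra2, 5 of 17 genes passed and none had a p below 0.05. Its shared chain Il2rg ran from 13.09 to 13.30 in NP and from 13.05 to 13.36 in MSC (-0.01, SE 0.09, FDR = 0.974), and Il15, a survival factor for T and NK cells, differed by 0.10 (SE 0.18, FDR = 0.859). None of the 5 genes of the IL-12 family passed the filter. In the IL-17 family 3 of 10 passed, among them Il17ra with a difference of -0.15 (SE 0.10, FDR = 0.573). Il34, which keeps macrophages alive through Csf1r, ran from 14.96 to 15.16 in NP and from 14.95 to 15.19 in MSC, and its log2 fold change was 0.02 (SE 0.08, FDR = 0.946).

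Il3ra, the chain that binds interleukin 3, was the receptor with the smallest p, and its value depended on the probe. The probe kept for the test read 9.41, 9.37, 9.24, 9.23 and 9.28 in NP and 9.62, 9.83, 9.45 and 9.60 in MSC, and all MSC arrays lay above all NP arrays. The log2 fold change was 0.32 (SE 0.09, limma FDR = 0.334, exact permutation p = 0.00794, the smallest that 126 assignments allow). A second probe that also passed the filter ran from 10.49 to 10.66 in NP and from 10.25 to 10.71 in MSC, and gave -0.11 (SE 0.10, FDR over all probes = 0.700). Both are shown because they are the source of the disagreement. They lie on the minus strand of chromosome 12 in rn4, the kept probe at 16830735 to 16830794, starting at base 459 of the transcript, and the second at 16828455 to 16828514, starting at base 1020.
Il3ra kept probe: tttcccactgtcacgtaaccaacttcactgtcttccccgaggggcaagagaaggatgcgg
Il3ra second probe: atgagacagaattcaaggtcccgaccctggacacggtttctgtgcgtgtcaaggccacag
Each 60-base probe holds 2 reading frames without a stop codon. The sign of Il3ra was therefore not settled by these arrays. Of the other 5 members with several probes past the filter, Ccl20, Ccl6 and Cxcl12 agreed in sign, whereas Il4r (0.14 and -0.11) and Il13ra1 (-0.26 and 0.07) did not, with an unadjusted p above 0.05 for each probe.

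Related genes outside the set were read the same way. Of 10 chemokines and chemokine receptors with other names on the array, 5 passed the filter and 1 was lower at an unadjusted p below 0.05, the platelet chemokine Pf4 (log2 fold change -0.71, SE 0.29, FDR = 0.406), which was -0.45 without MSC 1 and lost that p without NP 1, NP 4, NP 5, MSC 1 or MSC 3. Of 31 genes of interleukin signalling 24 passed and 1 was lower, Socs7, a suppressor of cytokine signalling (-0.40, SE 0.15, FDR = 0.377), with a p above 0.05 without MSC 1 or MSC 3. Of 18 related cytokines and receptors 12 passed and none had a p below 0.05, the smallest being that of Tnf (-0.29, SE 0.13, FDR = 0.439).

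Leukocyte markers were set beside the ligands. Of 8 neutrophil genes 2 passed the filter, S100a8 and S100a9, and both were lower in MSC at an unadjusted p below 0.05 (S100a8 -0.85, SE 0.34, FDR = 0.395; S100a9 -0.95, SE 0.42, FDR = 0.419). MSC 1 was the lowest array for both, and without it each differed by -0.51. With arrays left out singly, a p below 0.05 was kept by S100a8 without NP 3, NP 4 or MSC 2 and by S100a9 without NP 3 or MSC 2, and lost otherwise. Hbb, Alas2 and Pf4 were also lowest on MSC 1. The neutrophil list had its sum at 11.76 to 12.17 in NP and 11.08 to 12.15 in MSC, and Elane, Ngp and Fpr1 were not detected. Of 10 macrophage genes 8 passed and none had a p below 0.05, with a median log2 fold change of 0.29 and sums of 15.92 to 17.01 in NP and 16.34 to 17.08 in MSC. Of 9 genes of T and NK cells 3 passed and none had a p below 0.05. The list of mesenchymal stromal genes had 4 of 6 past the filter, of which Col1a1 was higher in MSC at an unadjusted p below 0.05 (1.06, SE 0.29, FDR = 0.334). Eng differed by 0.49, Nt5e by 0.09 and Itgb1 by 0.03, each with an unadjusted p above 0.05. Thy1 and Itga5 did not pass the filter. Of 8 endothelial genes 7 passed and 1 was lower at that p, Vwf (-0.23, SE 0.08, FDR = 0.340). The part of these cells in the chemokine and interleukin values was not tested.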

How the data were processed

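Total RNA of 5 NP and 4 MSC kidneys was labelled with Cy3 and hybridized by the authors to Agilent rat arrays, and another MSC array was discarded by them as of poor quality. The intensity of each of 62976 spots was deposited by the authors as scanned with Agilent Feature Extraction 10.7.3.1, per the file headers, with probe positions on rat build rn4. A table of log2 values that the authors had normalized with limma was also deposited, and it correlated at 0.99987 to 0.99998 with the values used here. The members and the gene lists were chosen with earlier results of these data known.

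Mean spot intensities were log2 transformed without background subtraction and normalized by cyclic loess in limma 3.58.1 (R 4.3.3). Control spots and spots flagged as outliers were left out, and spots of a probe were averaged. A probe was kept if it exceeded 1.1 times the 95th percentile of the log2 negative controls on at least 4 arrays, which left 15635 of 30367 probes. For each of the 1706 genes with several kept probes, the probe of largest variance was used. A linear model with empirical Bayes (MSC minus NP) was fitted to 13769 genes with Benjamini-Hochberg adjustment, and calls needed an FDR below 0.05 and a fold change above 1.5. Members not past the filter were read from the same fit without it. A gene was detected on an array if the scanner software marked more than 50% of the spots of any of its probes as well above background. Exact permutation tests were two-sided over all 126 assignments of labels, and took each gene alone.

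The genes named were the members with an unadjusted p below 0.05, the 10 members of highest mean intensity, a list of inflammatory ligands and receptors, and members whose probes disagreed in sign with one of them past that p. Genes printed as ligand and receptor pairs, Il1rl1, Ccr9 and the members of other roles named with a value beside these were chosen after their values were seen. Of 142 member probes, 128 were matched to RefSeq by accession, of which 2 carry another symbol now, Cxcr7 (Ackr3) and Cxcl5 (Cxcl6). Promoters came from RefSeq (GRCr8), with a member's symbol found for 98. Some ligand and receptor pairs and 1 marker list are not reported here. The number of arrays limits the precision. The scripts were tested on simulated data. Nothing states whether kidneys of a group came from separate litters or days, so p-values measure the spread between these samples.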

Additional observations from a re-analysis of the deposited data

Results flagged for a closer look

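In groups of 4 or 5 arrays, the gap between an extreme array and its neighbour was set against the range of the group for 60 combinations of gene and group, and 3 stood beyond the 95% limit, the number that chance gives at 1 in 20. Il6st, the shared chain of the IL-6 receptors, was high in MSC 1, at 12.68 against 12.36 for the next MSC array (gap over range 0.905). Il10 was high in MSC 3, at 8.35 against 8.09 (0.945), and this was the array on which it was above background. Il1rl1, the receptor of Il33, read 9.86 in MSC 4 against 8.10 for the next MSC array (0.965). This rests on 1 of its 2 probes, as the other was not above background on any array. It was detected on no other array, and it was named after its values were seen.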

How the results depend on the processing

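No member was called at an FDR below 0.05 with a fold change above 1.5 in any of 26 alternatives of the fit. At an unadjusted p below 0.05, the count of 5 higher members (against 6.59% of all genes) moved to 3 with median scaling (2.03%), to 3 without both arrays of highest fat gene level, an alternative chosen after seeing the data (3.91%), and to 3 with a fold change above 1.5 as well (0.675%). It was 4 with the brightest probe (6.3%) or the mean of probes (6.48%), which dropped Il3ra, 4 with array weights (8.1%), which dropped Cxcl2, and 6 with slide as a block (7%), which added Ccl2. With the filter on linear values, which tests 72 members, it was 6 (5.98%), with Il6 added. It ranged from 4 to 6 when each replicate was left out (4.92% to 7.43%). The count of 1 lower member (5.09%) moved to 2 with median pixel intensity, quantile normalization, no filter, a linear filter, the brightest probe, the mean of probes, array weights, a variance trend or the deposited log2 values, where Ccr9 or Ccl27 joined Ccl5 (4.05% to 8.44%). It moved to 0 with median scaling (4.08%), without both fat-rich arrays (2.68%) or with the fold change as well (0.574%), and ranged from 0 to 2 when each replicate was left out (3.34% to 9.3%). The median log2 fold change of members ranged from 0.007 to 0.09 when each replicate was left out. Il3ra reversed to -0.12 with median scaling and to -0.11 with the brightest probe, and in both the second of its probes is the one used. Of 29 named genes 13 kept their sign in every alternative. On at least 1 array, 75 members were detected in place of 48 on all 9.

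The deviations of replicates with the same number correlated at 0.20, 0.33, -0.35 and 0.05 for replicates 1 to 4. By this measure the nearest NP array was NP 1 for MSC 1, NP 2 for MSC 2 and MSC 4, and NP 5 for MSC 3. NP 3 and MSC 3 lie on different slides, so these values cannot decide whether the numbers pair the kidneys. With a replicate block, which leaves NP 5 without a partner, 5 members were higher (Ccl2 in place of Cxcl2) and 1 was lower (Ccr9 in place of Ccl5). The cause of these shifts was not tested. No background was subtracted, so fold changes of members near background, such as Il6 and Il10, are not read as sizes.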
